A study of Saccharomyces cerevisiae with 36 samples.

Results

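The 6 genes described here are PHO84, PHO89, SPL2, PHM6, GIT1 and PHO81 of budding yeast, Saccharomyces cerevisiae, out of 6600 open reading frames counted in the series. They are the phosphate transporter genes and the regulators of phosphate supply that stood higher in unheated cells lacking MPK1, and they were chosen by their measured counts in that comparison with the unheated wild type. It is therefore given below as a description, without a test, as is every other comparison that holds the unheated mpk1 deletion or the unheated wild type. All 6 genes were among the 6017 that passed the filter on low counts. Total RNA was sequenced from 4 strains of the BY4742 background, a haploid of mating type alpha. The double deletion lacks MPK1 and RRP6, the mpk1 deletion lacks MPK1, the rrp6 deletion lacks RRP6, and the wild type (WT) has both genes. Cells of every strain grew to mid-log phase at 25 °C in YPD, a rich medium, and were collected without heat (0 min) or after 10 or 45 min at 42 °C, reached by adding warm medium. Each of the 12 groups held 3 libraries lettered A, B and C, which the series calls biological replicates. How many independent isolates of each deletion were used is not stated in the labels.

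Yeast senses phosphate through the PHO pathway. In phosphate-rich cells the kinase Pho85 with its cyclin Pho80 phosphorylates the transcription factor Pho4 and keeps it out of the nucleus, and in starved cells the inhibitor Pho81 stops the kinase, so that Pho4, helped by Pho2, switches on genes for uptake, scavenging and storage. Among the 6 genes, PHO84 encodes the high-affinity proton-coupled phosphate transporter, PHO89 the sodium-coupled phosphate transporter and GIT1 a permease that takes up glycerophosphoinositol and glycerophosphocholine. SPL2 encodes a small protein that restrains low-affinity phosphate uptake, PHO81 the kinase inhibitor itself, and PHM6 a protein of unknown function whose gene follows phosphate supply. MPK1, listed as SLT2 in the files, encodes the MAP kinase through which yeast answers damage to its cell wall. RRP6 encodes a 3′ to 5′ nuclease of the nuclear exosome, which degrades and trims RNA in the nucleus. PHO84 is a known case of antisense control: in cells without Rrp6, RNAs transcribed from the opposite strand of PHO84 accumulate and the gene is repressed.

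All 6 genes lie on the minus strand of build R64 and have a single coding exon each. PHO84 (YML123C) covers XIII:24037-25800, PHO89 (YBR296C) II:796798-798522, SPL2 (YHR136C) VIII:374654-375100, PHM6 (YDR281C) IV:1022007-1022321, GIT1 (YCR098C) III:297049-298605 and PHO81 (YGR233C) VII:954674-958210. RefSeq annotates an antisense RNA, YNCM0001W, on the plus strand at XIII:23564-26578, which spans the whole of PHO84. The other members overlap no annotated gene. The strand setting of the authors' counting was not given in the sources used here, so in the counts below PHO84 messenger and antisense reads cannot be told apart from the labels alone. The counts of 8 genes that lie wholly within genes read from the other strand were looked at for this. Their totals over the libraries ran from 0 to 95587, and those of the surrounding genes from 130 to 22857. In 3 of the 8 pairs the inner gene had the more counts, and of these CPP2 and ADF1, singled out after their values were seen, had 95587 and 5686 counts, against 138 and 257 for the genes around them. The part of antisense reads in the PHO84 values was not tested.

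Pho4 binds the core CACGTG and, more weakly, CACGTT. Both were searched on both strands in the 800 bases before each start codon, a window set after a first search of 250 bases before to 50 bases after the start had found CACGTG in SPL2 and CACGTT in PHO81 alone. In the shorter window, 2.95% of 5897 yeast genes held CACGTG and 9.24% held CACGTT. The stress motif AGGGG was in none of the members' short windows and in 22% of all. In the longer window all 6 members held at least 1 CACGTG, which 9.11% of 5893 genes did, and all 6 held at least 2 sites of either kind, which 5.65% did. PHO84, SPL2, PHM6 and GIT1 held 3 or more sites, against 1.15% of all genes. Stretches are printed for the 3 genes of uptake, PHO84, PHO89 and GIT1, and for SPL2, which has the most CACGTG cores of the members. Each is 300 bases of RefSeq sequence of build R64, minus strand, read 5′ to 3′ toward the start codon, with the cores and their reverse complements in capitals.
PHO84, XIII:25937-26236: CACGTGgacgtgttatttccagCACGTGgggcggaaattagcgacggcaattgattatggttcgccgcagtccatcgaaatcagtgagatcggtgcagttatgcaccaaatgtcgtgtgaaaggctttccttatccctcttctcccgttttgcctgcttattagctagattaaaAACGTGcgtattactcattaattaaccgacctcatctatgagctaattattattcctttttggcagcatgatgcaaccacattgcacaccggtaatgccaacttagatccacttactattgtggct
SPL2, VIII:375162-375461: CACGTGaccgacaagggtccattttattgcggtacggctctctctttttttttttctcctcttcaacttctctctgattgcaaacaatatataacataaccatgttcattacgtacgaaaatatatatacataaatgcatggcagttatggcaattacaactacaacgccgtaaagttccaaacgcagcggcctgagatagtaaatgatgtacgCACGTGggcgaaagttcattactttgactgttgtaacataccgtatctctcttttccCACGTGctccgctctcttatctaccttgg
PHO89, II:798686-798985: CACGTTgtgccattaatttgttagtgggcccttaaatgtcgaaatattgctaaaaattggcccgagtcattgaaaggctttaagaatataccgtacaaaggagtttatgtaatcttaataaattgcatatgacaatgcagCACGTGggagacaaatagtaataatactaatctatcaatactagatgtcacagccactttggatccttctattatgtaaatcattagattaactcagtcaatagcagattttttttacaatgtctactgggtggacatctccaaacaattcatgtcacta
GIT1, III:298947-299246: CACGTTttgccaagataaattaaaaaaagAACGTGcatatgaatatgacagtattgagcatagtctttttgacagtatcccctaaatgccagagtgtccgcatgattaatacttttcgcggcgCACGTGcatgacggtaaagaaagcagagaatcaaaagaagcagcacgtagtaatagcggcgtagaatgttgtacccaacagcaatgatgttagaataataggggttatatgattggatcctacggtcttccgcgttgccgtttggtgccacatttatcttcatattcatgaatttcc
The PHO84 stretch holds 2 CACGTG cores, 436 and 414 bases before the start codon, and 1 CACGTT core at 262. It runs into the open reading frame YML122C at XIII:26038-26418 and lies within the antisense RNA. The SPL2 stretch holds CACGTG at 361, 147 and 90 bases, and a further one lies at 31. PHO89 has CACGTG at 323 and CACGTT at 463, and GIT1 has CACGTG at 518 and CACGTT at 641 and 612. A match describes these letters and is not evidence of binding in these cells.

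**Figure D1:**
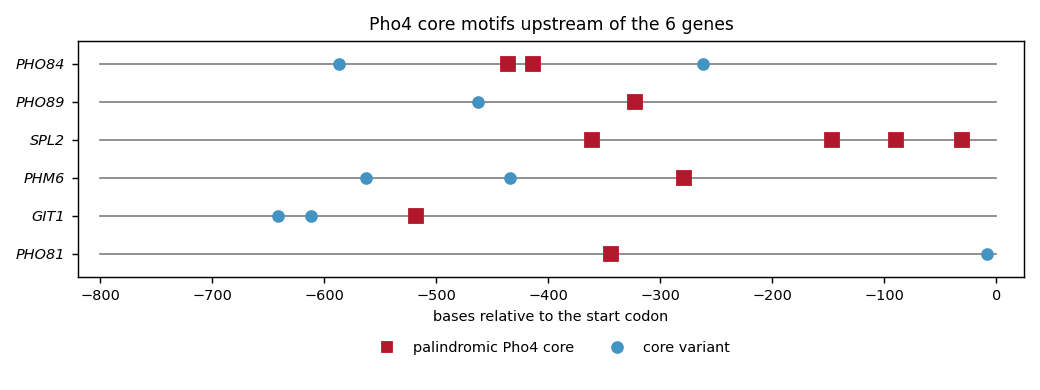
Pho4 core motifs in the 800 bases before the start codon of the 6 genes, placed by their distance from it, with squares for the palindromic core and circles for its variant. Every gene has at least 1 square, SPL2 has 4 of them, and the nearest mark of PHO81 is a circle 8 bases before the start.

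The strain labels were checked on the deleted genes. SLT2 had 6 counts in all over the 18 libraries of strains lacking MPK1, where each library of the strains with MPK1 had 111 to 1780, and RRP6 had 2 counts over its 18 libraries, against 40 to 1010. Of the background's deleted markers, no read was counted for LYS2 or URA3 in any library and 1 was for LEU2. The alpha-cell genes MF(ALPHA)1, MF(ALPHA)2 and STE3 had 15 to 31877 counts per library, and the a-cell genes MFA1, MFA2 and STE2 had 2 to 539. These ranges overlap, with STE2 at up to 539 counts and MF(ALPHA)2 and STE3 at as few as 15 and 67. Reads counted to genes came to between 2235918 and 12072112 per library. At these depths 3 counts equal 0.2 to 2.17 CPM, the unit used below, in which each count is set against its library's TMM-scaled total and expressed per 1e6. This floor covers counting error only, while the 95% intervals below come from the fit over replicate libraries and include their spread. In the heated double deletion library C was the least like the others: over genes, the correlations of A with B, A with C and B with C were 0.981, 0.978 and 0.958 after 10 min of heat, then 0.977, 0.961 and 0.954 after 45 min. Pairs of WT libraries of 45 min had 0.963 to 0.969.

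In whole cultures such as these, fewer cells expressing a gene and less RNA per cell cannot be told apart. PHO84 had the widest range of the 6 genes. It had 14.0, 4.19 and 3.07 CPM in libraries A, B and C of the unheated double deletion, 6.82, 4.88 and 3.60 CPM at 10 min and 14.4, 7.91 and 4.35 CPM at 45 min. In the mpk1 deletion PHO84 had 1126, 534 and 706 CPM at 0 min, 56.2, 11.7 and 20.1 CPM at 10 min and 225, 134 and 103 CPM at 45 min. All 9 double-deletion libraries lay below 15 CPM, and all 6 mpk1-deletion libraries at 0 and 45 min lay above 100. In the rrp6 deletion PHO84 had 0.932, 0.753 and 0.666 CPM at 0 min, 6.84, 8.43 and 4.78 CPM at 10 min and 6.66, 6.52 and 6.12 CPM at 45 min. In WT it had 28.6, 2.09 and 0.602 CPM at 0 min, 8.33, 10.2 and 4.76 CPM at 10 min and 17.4, 16.6 and 5.01 CPM at 45 min. The 3 unheated WT libraries rested on 94, 13 and 2 counts, so that library A carried nearly all of the group. The highest and lowest group means, 789 CPM in the unheated mpk1 deletion and 0.784 CPM in the unheated rrp6 deletion, differed 1006-fold. In the order of the 12 means, 8 of 11 neighbouring groups overlapped. Neighbours stood apart at the top, among the 3 mpk1-deletion groups, and at the bottom. There the unheated rrp6 deletion lay below its neighbour, the double deletion at 10 min. It overlapped unheated WT, whose library C, at 0.602 CPM, lay below all 3 libraries of the unheated rrp6 deletion.

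PHO89 followed a different order. The double deletion had 4.84 ± 1.10, 19.5 ± 7.02 and 20.7 ± 10.9 CPM at 0, 10 and 45 min (SD, n = 3 here and below). The mpk1 deletion had 42.1 ± 23.0, 48.0 ± 33.3 and 48.7 ± 26.9 CPM and the rrp6 deletion 1.28 ± 0.368, 8.16 ± 1.63 and 12.1 ± 8.41 CPM at these times. WT had 1.48 ± 1.09 CPM at 0 min and the highest means of all groups in heat, 58.9 ± 17.9 CPM at 10 min and 110 ± 9.56 CPM at 45 min. Neighbours in this order overlapped in 8 of 11 cases.

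SPL2 was highest in the unheated mpk1 deletion, at 59.7 ± 26.4 CPM. Its next 4 means, between 17.0 and 21.4 CPM, were those of the heated mpk1-deletion and heated WT groups, which overlapped one another. The heated double-deletion and rrp6-deletion groups lay between 5.68 and 7.32 CPM, below every heated WT library. The unheated double deletion, rrp6 deletion and WT had 2.88 ± 0.269, 3.10 ± 0.681 and 2.30 ± 0.965 CPM.

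PHM6 was the lowest in counts. In the double-deletion, rrp6-deletion and heated WT groups it had at most 14 counts per library and mean levels of 0.504 to 1.18 CPM, and WT at 45 min had 0, 2 and 2 counts. The mpk1 deletion had 24.5, 9.99 and 17.3 CPM of PHM6 at 0 min, 2.43, 1.21 and 2.20 CPM at 10 min and 9.64, 7.94 and 6.57 CPM at 45 min. Unheated WT stood at 2.05 ± 0.417 CPM, next below the mpk1 deletion at 45 min. Below it in the order, neighbours overlapped throughout.

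GIT1 was not highest in the unheated mpk1 deletion, where it had 5.33 ± 0.246 CPM. At 45 min it had 22.3 ± 8.15 CPM in the double deletion, 60.2 ± 19.6 CPM in the mpk1 deletion, its highest group, and 21.6 ± 9.80 CPM in WT. In every strain the GIT1 means stood in the order 0, 10 and 45 min from low to high, with 5.92, 10.7 and 22.3 CPM in the double deletion, 5.33, 13.4 and 60.2 in the mpk1 deletion, 3.94, 4.34 and 10.6 in the rrp6 deletion and 2.38, 7.33 and 21.6 in WT. In the rrp6 deletion the groups of 0 and 10 min overlapped, at 3.27 to 4.52 and 2.19 to 6.65 CPM.

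PHO81 had the narrowest range, 2.61-fold between 63.4 ± 7.93 CPM in WT at 45 min and 24.3 ± 2.20 CPM in the unheated rrp6 deletion. Neighbouring groups overlapped in 10 of 11 cases. Per kilobase of coding sequence, the scale on which genes can be compared, PHO84 was the highest member in the unheated mpk1 deletion at 447 ± 173 CPM per kb and GIT1 the lowest at 3.42 ± 0.158. In unheated WT, PHO81 was the highest at 6.94 ± 0.444 CPM per kb and PHO89 the lowest at 0.859 ± 0.632.

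**Figure D2:**
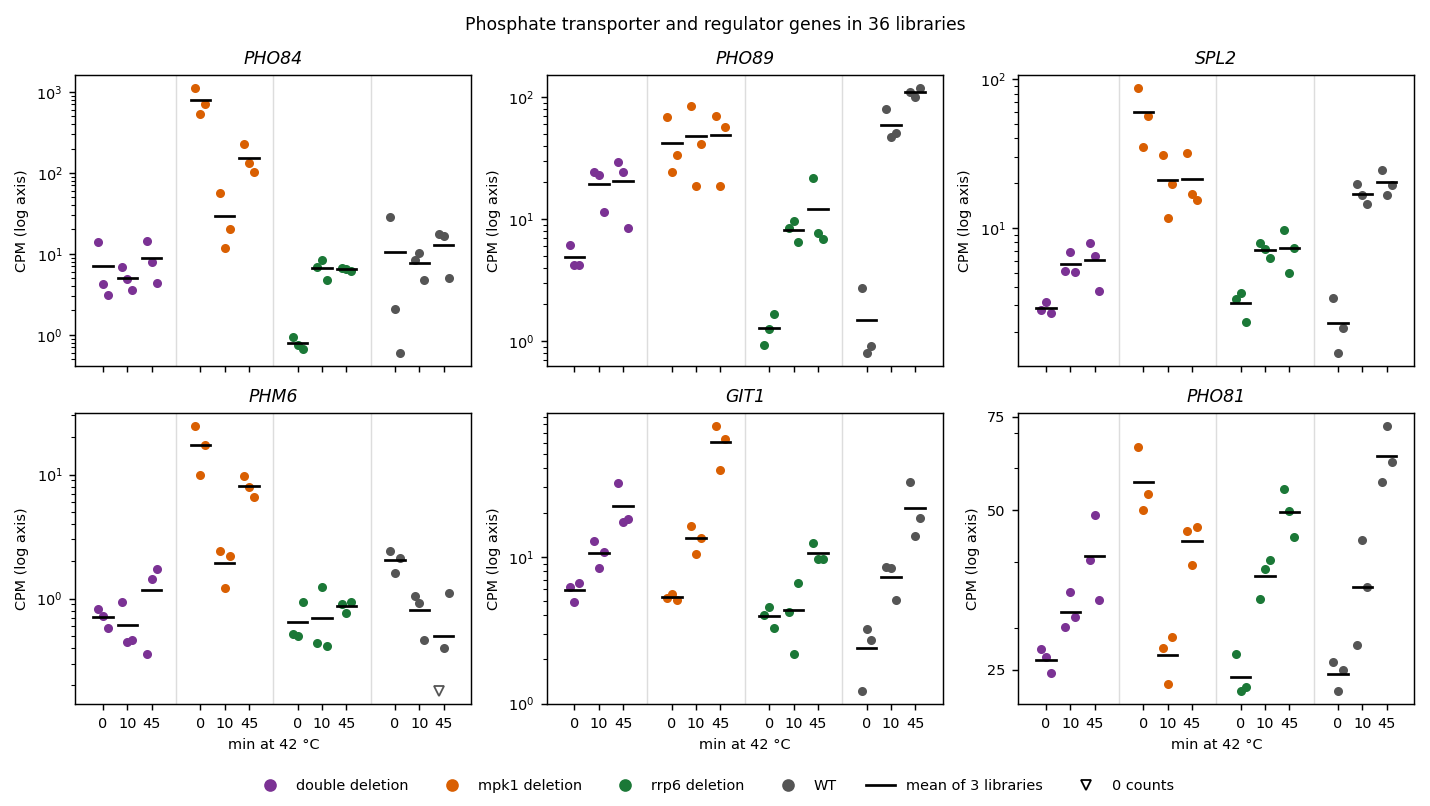
CPM of each gene on a log axis in all 36 libraries, by strain (double deletion, mpk1 deletion, rrp6 deletion, WT) and minutes at 42 °C, with points for libraries and bars for means of 3. PHO84, SPL2 and PHM6 are highest in the unheated mpk1 deletion, PHO89 and PHO81 in WT at 45 min and GIT1 in the mpk1 deletion at 45 min; the open triangle marks 0 counts.

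Before heat, the comparison that chose the genes gave log2 differences, mpk1 deletion over WT, of 6.39 for PHO84, 4.96 for PHO89, 4.79 for SPL2, 3.12 for PHM6, 1.21 for PHO81 and 1.07 for GIT1, and for each gene all 3 mpk1-deletion libraries lay above all 3 WT libraries. Without library A of WT the PHO84 value was 8.98. With RRP6 also deleted most of this was not seen. Over the mpk1 deletion, the unheated double deletion stood at −6.79 for PHO84, −4.59 for PHM6, −4.38 for SPL2, −3.11 for PHO89 and −1.12 for PHO81, with the double-deletion libraries below all mpk1-deletion libraries in these 5 genes. GIT1 was the exception at 0.17, with overlapping groups. Over WT, the unheated double deletion stood at 1.84 for PHO89, 1.24 for GIT1, 0.41 for SPL2, 0.10 for PHO81, −0.40 for PHO84 and −1.47 for PHM6. The PHO84 value rested on single libraries, being 2.19 without library A of WT and −1.41 without library A of the double deletion. The rrp6 deletion over WT stood at −3.58 for PHO84, or −0.99 without library A of WT, and at −1.48 for PHM6, 0.61 for GIT1, 0.49 for SPL2 and −0.01 for both PHO89 and PHO81. These values carry no test, because they share the libraries that chose the genes.

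The heated libraries did not enter the choice, but they come from the same strains as the unheated libraries that did. In these heated cells, loss of MPK1 left some members higher and others lower. At 10 min the mpk1 deletion over WT gave 3 members that rose and 1 that fell, where 45.0% of all genes tested were called in either direction (22.6% higher and 22.3% lower), so that the count of 4 in 6 is read against a large background. PHO84 rose by 1.91 ± 0.65 (log2 difference ± SE, adjusted p = 0.0188). PHM6 rose by 1.34 ± 0.50 (adjusted p = 0.0307), with 1.95 ± 0.647 CPM in the mpk1 deletion and 0.811 ± 0.305 CPM in WT. GIT1 rose by 0.89 ± 0.31 (adjusted p = 0.0219), and all 3 mpk1-deletion libraries lay above all 3 WT libraries for each of these 3 genes. PHO81 had 27.6, 23.5 and 28.9 CPM in the mpk1 deletion against 27.9, 44.0 and 35.9 CPM in WT and fell by 0.43 ± 0.15 (adjusted p = 0.0189), though the groups overlapped. PHO89 stood at −0.33 (95% interval −1.24 to 0.57) and SPL2 at 0.27 (−0.36 to 0.90), and neither passed.

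None of the 4 calls at 10 min held without each library in turn. That of PHO84 was lost without library A of the mpk1 deletion (1.12, adjusted p = 0.179) or C of WT (1.58, adjusted p = 0.0877). That of PHM6 was lost without A or C of the mpk1 deletion (1.23 and 1.16, adjusted p = 0.0682 and 0.122) or C of WT (0.93, adjusted p = 0.189), and that of GIT1 without A or C of the mpk1 deletion (0.76 and 0.87, adjusted p = 0.0727 and 0.0549) or C of WT (0.63, adjusted p = 0.148). That of PHO81 was lost without library B of the mpk1 deletion (−0.34, adjusted p = 0.101) or B of WT (−0.28, adjusted p = 0.159), and with total counts as the only scaling (−0.18, adjusted p = 0.344). With the compared libraries only, PHM6 (adjusted p = 0.0587) and PHO81 (adjusted p = 0.0812) were lost.

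At 45 min the mpk1 deletion had 3 members that rose and 2 that fell over WT, with 61.4% of all genes called (29.9% higher and 31.5% lower). PHM6 rose by 3.96 ± 0.55 (adjusted p = 5.3e-07). It had 8.05 ± 1.54 CPM, or 50 to 109 counts, in the mpk1 deletion against 0.504 ± 0.564 CPM, or 0 to 2 counts, in WT. PHO84 rose by 3.50 ± 0.65 (adjusted p = 3.4e-05), with 154 ± 63.2 CPM in the mpk1 deletion and 13.0 ± 6.92 CPM in WT. GIT1 had 77.7, 39.0 and 63.8 CPM in the mpk1 deletion against 32.6, 13.8 and 18.4 CPM in WT and rose by 1.59 ± 0.29 (adjusted p = 2.76e-05). The groups did not overlap for these 3 genes, and each call held without any 1 library; the PHM6 value was 4.60 without library C of WT.

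The other direction was that of PHO89 and PHO81. PHO89 had 70.4, 18.6 and 57.2 CPM in the mpk1 deletion against 111, 100 and 119 CPM in WT and fell by 1.19 ± 0.45 (adjusted p = 0.0215). This call was lost without library B of the mpk1 deletion (−0.78, adjusted p = 0.139), without library C of WT (−1.13, adjusted p = 0.0508) and with total counts as the only scaling (−0.46, adjusted p = 0.34). PHO81 fell by 0.56 ± 0.14 (adjusted p = 0.00141), with all mpk1-deletion libraries below all WT libraries, but stood at 0.19 (adjusted p = 0.237) with total counts only. The median over all genes shifted by 0.76 under that scaling, and values here are relative to TMM scaling. SPL2 stood at 0.10 (−0.57 to 0.78), and at 0.85 with total counts only (adjusted p = 0.0195).

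In cells lacking RRP6, loss of MPK1 gave 1 member called at each time, with backgrounds of 9.82%, 8.71% and 12.8% of genes at 0, 10 and 45 min. Of all genes, 5.72%, 4.79% and 6.78% were called higher and 4.11%, 3.92% and 6.05% lower. At 0 min PHO84 stood higher in the double deletion than in the rrp6 deletion in every library, 29 to 135 counts against 6 to 10, and rose by 3.17 ± 0.90 (adjusted p = 0.0218). This call depended on single libraries: the value was 2.17 without library A of the double deletion (adjusted p = 0.219) and 3.31, 3.16 and 3.03 without library A, B or C of the rrp6 deletion (adjusted p = 0.0589, 0.0644 and 0.108). PHO89 also had non-overlapping groups, with 6.11, 4.19 and 4.23 CPM in the double deletion against 0.932, 1.26 and 1.67 CPM in the rrp6 deletion, and stood at 1.85 (0.38 to 3.32, adjusted p = 0.102). SPL2 stood at −0.08 (−0.92 to 0.76), PHM6 at 0.02 (−1.04 to 1.07), GIT1 at 0.63 (−0.03 to 1.29) and PHO81 at 0.11 (−0.18 to 0.39).

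GIT1 was the member called in heat. It had 12.8, 8.43 and 10.8 CPM in the double deletion against 4.19, 2.19 and 6.65 CPM in the rrp6 deletion at 10 min and rose by 1.25 ± 0.35 (adjusted p = 0.0245). At 45 min it had 31.7, 17.3 and 18.0 CPM in the double deletion against 12.4, 9.59 and 9.65 CPM in the rrp6 deletion and rose by 1.06 ± 0.32 (adjusted p = 0.0279). At both times the double-deletion libraries lay above the rrp6-deletion libraries. The 10 min call was lost without library A of the double deletion (1.11, adjusted p = 0.0916) or A or B of the rrp6 deletion (1.19 and 0.997, adjusted p = 0.0766 and 0.126). The 45 min call was lost without library A of the double deletion (0.76, adjusted p = 0.139) or B or C of the rrp6 deletion (1.03 and 1.01, adjusted p = 0.0699 and 0.0858). When the 6 libraries compared were fitted by themselves neither passed (adjusted p = 0.112 and 0.0897). PHO84 in heat stood at −0.38 (−2.02 to 1.26) at 10 min and 0.42 (−1.33 to 2.18) at 45 min, intervals wide enough to hold changes of more than 1 in either direction on the log2 scale.

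**Figure D3:**
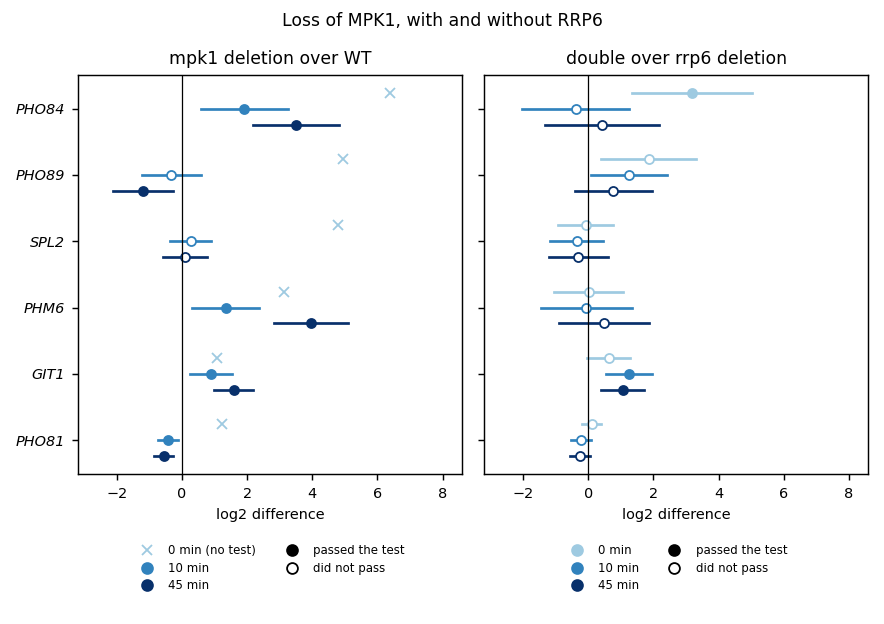
Log2 differences for loss of MPK1 with RRP6 present (left) and absent (right), with 95% intervals, filled circles for calls and crosses for the untested comparison of unheated cells. At 45 min PHO84 and PHM6 lie at 3.50 and 3.96 on the left and at 0.42 and 0.48 on the right.

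Whether the effect of MPK1 loss differed with RRP6 was tested as the difference of these differences. At 45 min the effect without RRP6 minus that with RRP6 was −3.48 ± 0.99 for PHM6 (adjusted p = 0.00653), −3.07 ± 1.10 for PHO84 (adjusted p = 0.0276) and 1.96 ± 0.73 for PHO89 (adjusted p = 0.0338), where 38.3% of all genes were called (21.5% above 0 and 16.8% below). The PHO89 value joins a fall with RRP6 present and a value of 0.77 (−0.42 to 1.95) without it. GIT1 stood at −0.53 (−1.42 to 0.36), SPL2 at −0.41 (−1.55 to 0.72) and PHO81 at 0.29 (−0.13 to 0.72). The PHM6 call held without any 1 library and was −4.09 without library C of WT. Its counts per library were near the floor in 3 of the 4 groups, at 1 to 6 in the double deletion, 2 to 4 in the rrp6 deletion and 0 to 2 in WT. The PHO84 call was lost without library A of the mpk1 deletion (−2.68, adjusted p = 0.0581), A, B or C of the rrp6 deletion (−3.02, −3.04 and −3.09, adjusted p = 0.0519, 0.0521 and 0.061), B or C of the double deletion (−2.98 and −2.72, adjusted p = 0.057 and 0.0558) or C of WT (−2.73, adjusted p = 0.0537). The PHO89 call was lost without A or B of the double deletion (1.70 and 1.82, adjusted p = 0.0911 and 0.0889), B of the mpk1 deletion (1.55, adjusted p = 0.0807) or B or C of the rrp6 deletion (1.79 and 1.66, adjusted p = 0.0768 and 0.103), was 2.74 without library A of the rrp6 deletion, and was lost with total counts only (1.45, adjusted p = 0.0874) and with the compared libraries only (1.93, adjusted p = 0.062). That of PHO84 was also lost without both libraries C of the heated double deletion (−2.71, adjusted p = 0.0558). At 10 min 16.8% of genes (10.2% above 0 and 6.63% below) and no member were called, with PHO84 at −2.29 (−4.42 to −0.15, adjusted p = 0.13) and PHO89 at 1.58 (0.10 to 3.05, adjusted p = 0.129), the 2 members with an unadjusted p under 0.05. PHO89 passed there without library A of the mpk1 deletion (2.20, adjusted p = 0.0331), and with DESeq2 no member was called.

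In heated cells, every member called between strains without and with RRP6 was lower without it, though some of these calls depended on single libraries. Over the mpk1 deletion, the double deletion had 4 members that fell at 10 min and 4 at 45 min and none that rose, with 20.0% and 27.8% of all genes called. Of all genes, 8.51% and 12.3% were called lower and 11.5% and 15.5% higher. SPL2 fell by 1.87 ± 0.34 at 10 min (adjusted p = 0.000259) and by 1.80 ± 0.37 at 45 min (adjusted p = 0.000604). It had 5.08, 6.88 and 5.07 CPM in the double deletion against 31.1, 11.7 and 19.8 CPM in the mpk1 deletion at 10 min. At 45 min it had 7.93, 6.47 and 3.77 CPM in the double deletion against 32.0, 16.9 and 15.4 CPM in the mpk1 deletion. PHO84 fell by 2.47 ± 0.67 at 10 min (adjusted p = 0.00872) and by 4.15 ± 0.66 at 45 min (adjusted p = 2.88e-05), and PHM6 by 1.61 ± 0.49 (adjusted p = 0.0197) and 2.66 ± 0.41 (adjusted p = 2.29e-05). In these 6 cases the double-deletion libraries lay below all mpk1-deletion libraries.

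The remaining calls in this comparison differed by time. PHO89 fell by 1.29 ± 0.47 at 10 min (adjusted p = 0.0497) with overlapping groups and stood at −1.22 (−2.22 to −0.22, adjusted p = 0.061) at 45 min. GIT1 fell by 1.44 ± 0.27 at 45 min (adjusted p = 0.000212), with 22.3 ± 8.15 CPM in the double deletion and 60.2 ± 19.6 CPM in the mpk1 deletion, and stood at −0.28 (−0.87 to 0.31) at 10 min. PHO81 stood at 0.27 (−0.03 to 0.56) and −0.08 (−0.38 to 0.21). The 4 calls at 45 min and that of SPL2 at 10 min held without any 1 library. At 10 min the PHO84 call was lost without library A of the mpk1 deletion (−1.68, adjusted p = 0.0776), and that of PHM6 without B or C of the double deletion (−1.51 and −1.33, adjusted p = 0.0686 and 0.0742) or C of the mpk1 deletion (−1.42, adjusted p = 0.0944). The PHO89 call was lost without A, B or C of the double deletion (−1.51, −1.41 and −0.97, adjusted p = 0.0631, 0.0924 and 0.149) or A or C of the mpk1 deletion (−0.67 and −1.38, adjusted p = 0.33 and 0.0691), and with DESeq2 (adjusted p = 0.0871), no filter (0.051), a mean of 5 CPM (0.0512) or DESeq2 size factors (0.0608). With the compared libraries only, PHO89 (adjusted p = 0.161) and PHM6 (adjusted p = 0.0929) were lost. At 45 min PHO89 passed without library B of the mpk1 deletion (−1.63, adjusted p = 0.0133).

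In cells with MPK1, the rrp6 deletion over WT had 2 members that fell at 10 min and 4 at 45 min and none that rose, where 30.3% and 46.4% of genes were called. Of all genes, 15.8% and 24.7% were called lower and 14.5% and 21.7% higher. PHO89 showed the largest of these differences. It had 8.38, 9.68 and 6.44 CPM in the rrp6 deletion against 79.4, 46.7 and 50.5 CPM in WT at 10 min and fell by 2.87 ± 0.54 (adjusted p = 0.000183). At 45 min it had 21.8, 7.67 and 6.83 CPM in the rrp6 deletion against 111, 100 and 119 CPM in WT and fell by 3.18 ± 0.53 (adjusted p = 1.56e-05), or by 3.97 without library A of the rrp6 deletion. SPL2 fell by 1.24 ± 0.36 (adjusted p = 0.00898) and 1.38 ± 0.40 (adjusted p = 0.00479) at 10 and 45 min. The calls of these 2 genes held without any 1 library, and the groups did not overlap.

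GIT1 fell by 0.91 ± 0.34 (adjusted p = 0.028) and PHO81 by 0.38 ± 0.15 (adjusted p = 0.0389) in the rrp6 deletion over WT at 45 min. The GIT1 call was lost without B or C of the rrp6 deletion (−0.90 and −0.88, adjusted p = 0.0579 and 0.0751), A of WT (−0.59, adjusted p = 0.177) or with total counts only (−0.69, adjusted p = 0.0821). The PHO81 call was lost without C of the rrp6 deletion (−0.34, adjusted p = 0.11), B of WT (−0.31, adjusted p = 0.164), with total counts only (−0.15, adjusted p = 0.444) or with the compared libraries only (−0.32, adjusted p = 0.133). PHO84 stood at −0.18 (−1.79 to 1.43) and −1.08 (−2.78 to 0.63) at 10 and 45 min, so neither direction was resolved, with 23 to 31 and 17 to 26 counts per library in the rrp6 deletion against 40 to 44 and 9 to 83 in WT. PHM6 stood at −0.21 (−1.61 to 1.20) and 0.83 (−0.97 to 2.62). The share of reads that fell outside genes or were unaligned, ambiguous or repeated was higher in heated libraries of both strains without RRP6. At 45 min it was 41.3% to 44.3% in the double deletion, 25.1% to 30.6% in the mpk1 deletion, 43.7% to 50.1% in the rrp6 deletion and 21.6% to 30.8% in WT, and its part in these differences was not tested.

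**Figure D4:**
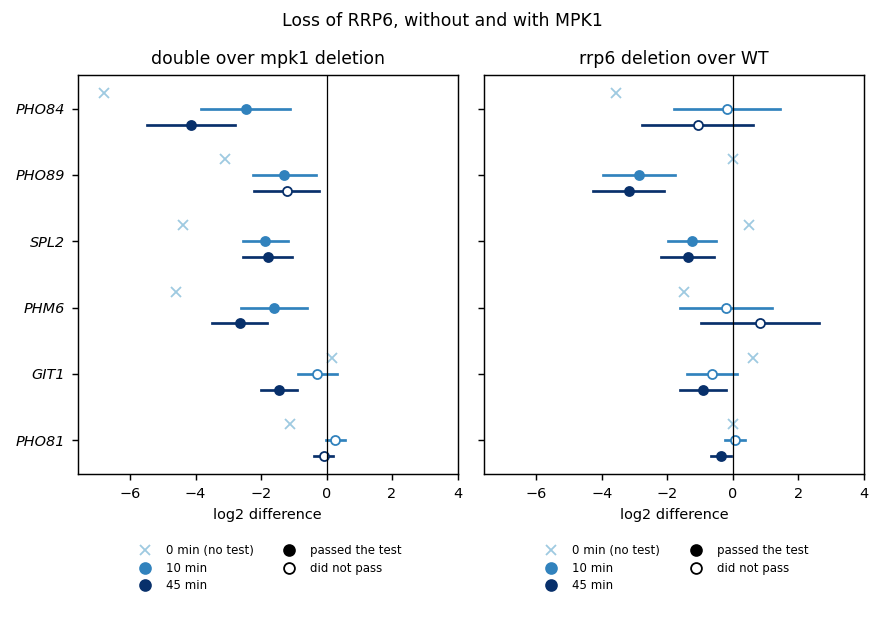
Log2 differences for loss of RRP6 with MPK1 absent (left) and present (right), with 95% intervals, filled circles for calls and crosses for the untested comparisons of unheated cells. Filled circles all lie below 0; at 45 min PHO84 is at −4.15 on the left and PHO89 at −3.18 on the right.

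Heat raised members in the 2 strains whose heat response could be tested. In the double deletion 3 of 6 rose at 10 min and 4 at 45 min over 0 min, and in the rrp6 deletion 4 and 5 did, with none falling in either strain. The background was 74.7% and 77.8% of genes called in the double deletion and 74.8% and 79.5% in the rrp6 deletion, so these counts do not set the members apart. Genes called higher made up 37.3% and 39.9% in the double deletion and 37.2% and 40.5% in the rrp6 deletion, and genes called lower 37.3% and 37.9% in the double deletion and 37.7% and 39.0% in the rrp6 deletion. PHO89 rose by 1.97 ± 0.54 and 2.07 ± 0.57 at 10 and 45 min in the double deletion (adjusted p = 0.00168 and 0.00159) and by 2.57 ± 0.75 and 3.16 ± 0.73 in the rrp6 deletion (adjusted p = 0.00283 and 0.000236). PHO84 rose in the rrp6 deletion, by 3.05 ± 1.01 and 3.03 ± 1.06 (adjusted p = 0.00789 and 0.0104), and stood at −0.50 (−1.95 to 0.95) and 0.28 (−1.24 to 1.79) in the double deletion. That difference between the strains did not itself pass: the heat response of the double deletion minus that of the rrp6 deletion was −3.55 (−6.09 to −1.02, adjusted p = 0.102) at 10 min and −2.75 (−5.39 to −0.11, adjusted p = 0.192) at 45 min. In these contrasts 4.17% (2.19% above 0 and 1.98% below) and 9.06% (4.72% above 0 and 4.34% below) of genes and no member were called, with 1 member at each time at an unadjusted p under 0.05. With DESeq2 1 member, PHO84, passed at 10 min (−3.54, adjusted p = 0.0367).

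SPL2 rose by 0.95 ± 0.40 and 1.07 ± 0.44 in the double deletion (adjusted p = 0.0313 and 0.03) and by 1.23 ± 0.41 and 1.30 ± 0.42 in the rrp6 deletion (adjusted p = 0.00749 and 0.00593). GIT1 rose by 0.85 ± 0.30 and 1.87 ± 0.30 in the double deletion (adjusted p = 0.0119 and 1.99e-06), and in the rrp6 deletion by 1.44 ± 0.34 at 45 min (adjusted p = 0.00037). PHO81 rose by 0.66 ± 0.15 at 45 min in the double deletion (adjusted p = 0.000177) and by 0.63 ± 0.15 and 1.03 ± 0.15 in the rrp6 deletion (adjusted p = 0.000274 and 1.72e-07). PHM6 did not pass in either strain, with values between −0.18 and 0.81. Among these, 3 calls in the double deletion rested on single libraries. SPL2 at 10 min was lost without A or C of 0 min or B of 10 min (adjusted p = 0.0656, 0.0832 and 0.0766), and at 45 min without A or C of 0 min or A or B of 45 min (adjusted p = 0.0564, 0.0699, 0.11 and 0.087). GIT1 at 10 min was lost without library A of 10 min (0.71, adjusted p = 0.0606). The PHO89 value at 45 min in the rrp6 deletion was 2.42 without library A of 45 min. With total counts only, which shifted the median gene by −0.50 to −0.66 in these comparisons, the calls of SPL2 in both strains, GIT1 at 10 min in the double deletion, and PHO81 at 10 min in the rrp6 deletion and at 45 min in the double deletion were lost.

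In the mpk1 deletion and WT the unheated libraries had chosen the genes, so their heat responses are described only. The mpk1 deletion over its 0 min libraries stood at −4.83 and −2.37 for PHO84 at 10 and 45 min, −3.16 and −1.12 for PHM6, −1.56 and −1.51 for SPL2, −1.09 and −0.37 for PHO81, 0.14 and 0.18 for PHO89 and 1.30 and 3.48 for GIT1. The PHO89 value at 10 min was 0.69 without library A of 0 min and −0.48 without library A of 10 min. WT stood at 5.43 and 6.33 for PHO89, 2.96 and 3.17 for SPL2, 1.48 and 2.96 for GIT1, 0.55 and 1.40 for PHO81, −1.38 and −1.97 for PHM6 and −0.35 and 0.53 for PHO84. Without library A of unheated WT the PHO84 values were 2.25 and 3.12.

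**Figure D5:**
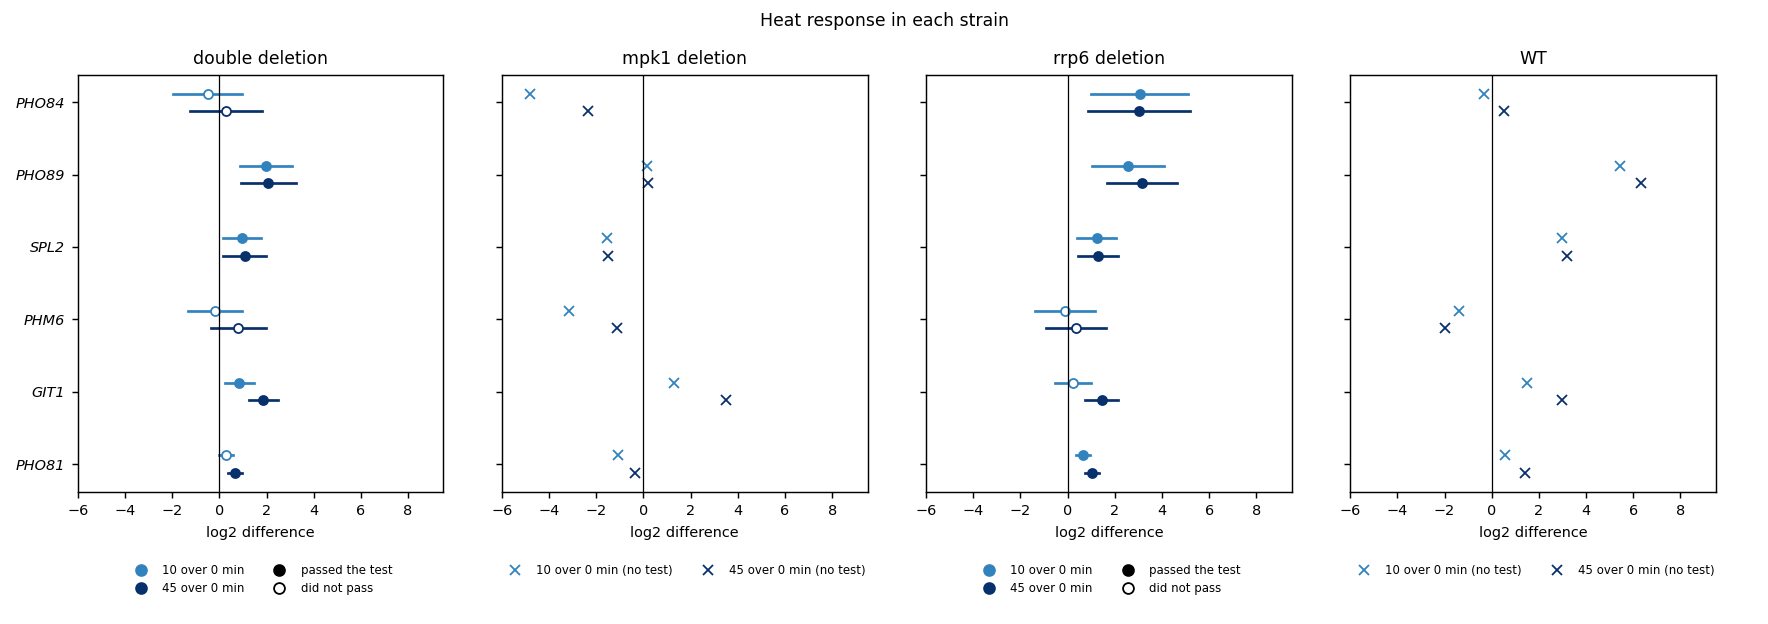
Log2 differences of 10 and 45 min over 0 min at 42 °C in each strain, with 95% intervals where tested, filled circles for calls and crosses where the unheated group had chosen the genes. PHO89 lies at 0.14 and 0.18 in the mpk1 deletion and at 5.43 and 6.33 in WT.

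Between 10 and 45 min, which leaves out the unheated libraries, every call was a rise. GIT1 rose in all 4 strains, by 1.02 ± 0.29 in the double deletion (adjusted p = 0.00712), 2.18 ± 0.27 in the mpk1 deletion (adjusted p = 9.37e-08), 1.21 ± 0.38 in the rrp6 deletion (adjusted p = 0.013) and 1.48 ± 0.34 in WT (adjusted p = 0.000615), with groups that did not overlap. GIT1 was the only member called in the double deletion, where 35.2% of genes were called (16.9% higher and 18.3% lower), and 1 of 2 in the rrp6 deletion, where 35.0% were (16.9% higher and 18.1% lower). The mpk1 deletion had 4 of 6 called, against 52.0% of genes (25.6% higher and 26.4% lower), and WT 2, against 46.8% (25.0% higher and 21.8% lower). In the mpk1 deletion PHO84 rose by 2.46 ± 0.56 (adjusted p = 0.000473), or 3.25 without library A of 10 min, and PHM6 by 2.04 ± 0.33 (adjusted p = 6.79e-06). PHO81 rose by 0.71 ± 0.14 in the mpk1 deletion (adjusted p = 0.000121), 0.40 ± 0.15 in the rrp6 deletion (adjusted p = 0.0367) and 0.84 ± 0.15 in WT (adjusted p = 3.03e-05).

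PHO89 in WT stood at 0.90 at 45 over 10 min (−0.01 to 1.81, adjusted p = 0.0987) with all libraries of 45 min above those of 10 min. It passed with the replicate letter as a block (0.99, adjusted p = 0.0149), and in that comparison the letters paired the libraries. The GIT1 call in the double deletion was lost without library A of 45 min (0.70, adjusted p = 0.0935). In the rrp6 deletion it was lost without A of 45 min or A or B of 10 min (1.06, 1.13 and 0.94, adjusted p = 0.0647, 0.0529 and 0.0734), and the PHO81 call there without A or B of 45 min or A, B or C of 10 min (adjusted p = 0.181, 0.0871, 0.179, 0.069 and 0.0504), without a filter (0.055) and with total counts only (0.188). PHO81 in the double deletion stood at 0.36 (adjusted p = 0.0553) and passed without library B of 10 min (0.43, adjusted p = 0.0399) or C of 45 min (0.49, adjusted p = 0.0133). The mpk1-deletion and WT calls held without any 1 library.

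The rest of the phosphate system was followed through 27 genes in 3 lists that were drawn up with results of these data known. Before heat, described without a test, PHO5, PHO12, PHO11 and VTC3 had mean levels of 196, 222, 106 and 422 CPM in the mpk1 deletion. They had 5.99, 7.41, 7.47 and 62.8 CPM in unheated WT and 6.46, 9.61, 7.98 and 53.65 CPM in the unheated double deletion. Not all listed genes followed this order. In the unheated mpk1 deletion, WT and double deletion PHM8 had 27.9, 1.3 and 23.2 CPM. In the same order PHM7 had 2.37, 2.06 and 2.09 CPM and PHO90 69.9, 122 and 70.8. Of 12 genes raised by Pho4 or storing and releasing phosphate, 3 rose and 1 fell in the mpk1 deletion over WT at 10 min, with a list median of 0.24 beside 0.03 for all genes. These 4 of 12 stand beside 45.0% of all genes called (22.6% higher and 22.3% lower). PHO12 and PHO11, acid phosphatases whose near-identical sequences may share reads, rose by 1.26 ± 0.25 and 1.15 ± 0.30 (adjusted p = 0.000143 and 0.00232), and VTC3, a subunit of the polyphosphate synthase, by 0.43 ± 0.17 (adjusted p = 0.0433), while PHM7 fell by 0.69 ± 0.23 (adjusted p = 0.0152). At 45 min 2 rose and 5 fell, with a median of −0.30, beside 61.4% of all genes called (29.9% higher and 31.5% lower). Neither of these counts in heated cells sets the list apart from the background. VTC3 rose by 0.95 ± 0.18 (adjusted p = 3.23e-05), while PHM7 fell by 2.17 ± 0.24 (adjusted p = 1.03e-08), the nucleotidase gene PHM8 by 1.42 ± 0.28 (adjusted p = 6.13e-05) and PHO11 by 1.25 ± 0.39 (adjusted p = 0.00681). PHM7 and PHM8 had mean levels of 2.06 and 1.3 CPM in unheated WT and 1619 and 936.5 CPM in WT at 45 min. In the mpk1 deletion at 45 min these 2 genes had 361 and 349 CPM.

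In the double deletion over the mpk1 deletion, 5 of these 12 genes fell and 1 rose at 10 min, and 5 fell and none rose at 45 min, with medians of −0.26 and −0.42 beside −0.01 and −0.005 for all genes. Of all genes, 8.51% and 12.3% were called lower at these times and 11.5% and 15.5% higher. At 10 min PHO12 and PHO11 fell by 1.39 ± 0.24 and 1.35 ± 0.29, the secreted acid phosphatase gene PHO5 by 1.26 ± 0.20 and the vacuolar alkaline phosphatase gene PHO8 by 0.87 ± 0.15 (adjusted p = 0.000168, 0.00138, 4.73e-05 and 0.000139). At 45 min PHO8 fell by 1.31 ± 0.15, VTC4 by 0.89 ± 0.14, PHO12 by 0.76 ± 0.28 and VTC3 by 0.74 ± 0.17 (adjusted p = 3.41e-07, 3.66e-05, 0.042 and 0.0019). In the double deletion over the rrp6 deletion, at most 1 of the 12 was called in any direction at each time.

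The 8 genes of signalling and regulation had 4 that fell and none that rose in the mpk1 deletion over WT at 10 min, and 3 that fell and 1 that rose at 45 min. With 45.0% and 61.4% of all genes called in either direction at these times, 4 of 8 called is near the background. By direction, all 4 calls at 10 min were falls, where 22.3% of all genes were called lower. At 45 min 31.5% of all genes were called lower. Whether the list differs from these shares was not tested. At 10 min PHO4 fell by 0.63 ± 0.20, PHO2 by 0.51 ± 0.11, and the inositol pyrophosphate kinase genes KCS1 and VIP1 by 0.54 ± 0.12 and 0.44 ± 0.10 (adjusted p = 0.0101, 0.000416, 0.000836 and 0.000904). At 45 min PHO4, KCS1 and VIP1 fell by 0.80 ± 0.19, 0.75 ± 0.13 and 0.65 ± 0.10 and DDP1, a polyphosphate and inositol pyrophosphate phosphatase gene, rose by 0.52 ± 0.22 (adjusted p = 0.000646, 8.25e-06, 3.27e-06 and 0.0472). Neither PHO80 nor PHO85 was called at either time.

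Of 7 genes of constitutive phosphate transport and its helpers, 1 rose and 2 fell at 10 min and 3 rose and 2 fell at 45 min in the mpk1 deletion over WT, again near the 45.0% and 61.4% of all genes called. PHO90, the low-affinity plasma membrane transporter, fell by 1.85 ± 0.30 and 2.06 ± 0.31 (adjusted p = 1.42e-05 and 1.62e-06), and PHO91, the vacuolar transporter, by 0.30 ± 0.12 and 1.22 ± 0.13 (adjusted p = 0.0466 and 6.03e-09). In the double deletion over the mpk1 deletion PHO90 rose by 1.33 ± 0.30 and 1.49 ± 0.31 (adjusted p = 0.00217 and 0.000731), the direction opposite to PHO84, and the effect of MPK1 loss on PHO90 without RRP6 minus that with RRP6 was 1.80 ± 0.41 and 1.88 ± 0.43 (adjusted p = 0.00437 and 0.00126). In heat, 5 of the 7 fell at both 10 and 45 min over 0 min in the double deletion, where 37.3% and 37.9% of all genes were called lower, and 6 and 5 fell in the rrp6 deletion, where 37.7% and 39.0% were, PHO87, PHO88, PHO90 and PHO91 by 0.94 to 2.05 throughout.

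The members did not vary as 1 group. Over the 36 libraries, Pearson's r of log2 CPM was 0.84 between PHO89 and SPL2, 0.81 between PHO84 and SPL2 and 0.80 between PHO84 and PHM6, and 0.12 between PHM6 and GIT1. Over the 30 libraries outside unheated WT and the unheated mpk1 deletion these were 0.88, 0.72, 0.70 and 0.55. Libraries of a group share strain, heat and growth, so these values describe the samples and carry no p. The genes outside the 6 most like each member were ranked over all 36 libraries, which include those that chose the members, and their rank over the other 30 libraries is given beside each. VTC3 was the most like PHO84 in both (0.92 over 36 and 0.85 over 30 libraries). PHO12 and VTC1, next over the 36 libraries at 0.85 and 0.81, had ranks 121 and 366 over the 30, at 0.69 and 0.62. For PHM6 the first over 36 libraries was VTC3 (0.84), at rank 40 over the 30 (0.69), and for SPL2 it was PHO5 (0.92), at rank 11 over the 30 (0.85). For PHO89, HSU1, ATG40 and GTT1 led over 36 libraries (0.89, 0.87 and 0.87) and had ranks 23, 17 and 26 over the 30 (0.88, 0.89 and 0.88). For PHO81, DNF1, SAM2 and MSS116 led (0.80, 0.75 and 0.74) and had ranks 8, 59 and 60 over the 30 (0.90, 0.84 and 0.84). GIT1 kept the same 3 genes at the top in both, LUG1, YOR024W and TPH3 (0.93, 0.93 and 0.92 over 36 and 0.92, 0.93 and 0.92 over 30).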

How the data were processed

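The authors used HISAT2 2.1.0, HTSeq and build R64, per the submitters' processing notes; how HTSeq was set for strand, and its version, are not given in the sources used here. Deposited files held whole-number counts for 6600 open reading frames per library and summary lines of 15.9% to 50.1% of reads, which stayed out of library sizes and tests. The heat label gives no unit and was read as minutes. Of 6600 identifiers, 5917 matched RefSeq.

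Genes were kept with filterByExpr (minimum count 10, total 15), scaled by TMM (factors 0.618 to 1.388) and fitted with edgeR 4.0.16 (R 4.3.3) by quasi-likelihood, 1 coefficient per group over all 36 libraries. The common biological coefficient of variation was 0.1535. A gene was called at a Benjamini-Hochberg adjusted p of 0.05 over the 6017 genes of each comparison. The 6 members and the 3 lists were chosen with earlier results of these data known. Named genes are the members, SLT2 and RRP6, up to 4 called genes per list and comparison with the largest differences, and the 3 genes most correlated with each member. The Pho4 window of 800 bases was set after a shorter one was searched, and printed stretches are the 300 bases with the most CACGTG cores ending at least 60 bases before the start. Correlations used log2 CPM with a prior count of 2. An exact two-sided permutation test on 6 libraries reaches 0.1 at best and was not used.

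Replicate letters were taken to pair libraries where every same-letter correlation of deviations exceeded 0.1. This held in 4 comparisons: the mpk1 deletion over WT at 45 min (0.20, 0.29 and 0.15), and 45 over 10 min in the double deletion (0.21, 0.57 and 0.46), the mpk1 deletion (0.22, 0.23 and 0.32) and WT (0.15, 0.45 and 0.44). Alternatives were DESeq2 1.42.0, DESeq2 size factors, no filter, genes averaging 5 CPM or more, total counts only, the compared libraries only, the replicate block, leaving out each library, and leaving out both heated libraries C of the double deletion.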

Additional observations from a re-analysis of the deposited data

Results flagged for a closer look

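For 3 members the effect of MPK1 loss at 45 min differed between cells without and with RRP6, by a test of the difference itself. The log2 effect without RRP6 minus that with RRP6 was −3.073 for PHO84, from 0.42 in the double deletion over the rrp6 deletion and 3.50 in the mpk1 deletion over WT. It was −3.482 for PHM6, from 0.48 and 3.96 in the same order. It was 1.964 for PHO89, from 0.77 and −1.19. The PHO84 call was lost in 8 of 20 alternatives and the PHO89 call in 7 of 20, and the PHM6 call in none of 19. PHM6 averaged less than 5 CPM, so it was not tested under that filter. At 45 min it had 1 to 6 counts per library in the double deletion, 2 to 4 in the rrp6 deletion and 0 to 2 in WT. Groups of 3 libraries are too small for the search for single outlying samples.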

How the results depend on the processing

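Of 126 tested member values, 54 were called. Of these, 28 were called under every alternative in which they were tested and 26 were lost under at least 1. Over the alternatives of called values, 640 of 735 kept direction and call, 94 lost the call and 1 turned: PHO81 in the mpk1 deletion over WT at 45 min stood at 0.19 with total counts only. Of 1092 alternatives of uncalled values, 31 passed. The cause of these changes was not tested.

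Members called in the double deletion over the rrp6 deletion numbered 1 at 0 min, against 3 with the compared libraries only and 2 with DESeq2, and 1 at 10 and at 45 min, against 0 with the compared libraries only at each. The other phosphate genes called at 0 min numbered 3, against 1 without a filter and 7 with the compared libraries only. In the mpk1 deletion over WT at 10 min 4 members were called, against 2 with the compared libraries only, and in the rrp6 deletion over WT at 45 min 4, against 2 with total counts. In the double deletion over the mpk1 deletion at 10 min 4 were called, against 2 without both libraries C or with the compared libraries only. The count was also 2 at a mean of 5 CPM, where PHM6 was not tested and PHO89 lost its call. Other phosphate genes called in the double deletion over the mpk1 deletion numbered 10 and 11 at 10 and 45 min. With the compared libraries only they numbered 5 and 5, and with total counts 17 at 45 min. With total counts, members called fell to 2 of 4 at 10 min in the rrp6 deletion, to 1 of 3 and 2 of 4 at 10 and 45 min in the double deletion, and to 1 of 2 for 45 over 10 min in the rrp6 deletion, as without a filter there. For 45 over 10 min in the double deletion 1 became 2 at 5 CPM, with size factors, without libraries C and with DESeq2. For the heat response of the double deletion minus the rrp6 deletion at 10 min 0 became 1 with the compared libraries only and with DESeq2, and for the difference in MPK1 loss at 10 min 0 became 1 without libraries C.

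Leaving out 1 library gave 0 to 1 members at each time in the double deletion over the rrp6 deletion, with 1 to 2 other phosphate genes at 0 min, 1 to 4 members in the mpk1 deletion over WT at 10 min, 2 to 4 in the rrp6 deletion over WT at 45 min and 2 to 4 in the double deletion over the mpk1 deletion at 10 min, with 5 to 10 and 7 to 12 other phosphate genes at 10 and 45 min. It gave 0 to 2 for 45 over 10 min in the rrp6 and in the double deletion, and 0 to 1 and 1 to 3 for the difference in MPK1 loss at 10 and 45 min.

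With the replicate block, PHO89 in WT passed for 45 over 10 min (0.99), and no other member's call changed where letters paired the libraries. Elsewhere the rule for pairing was not met or, for differences of differences, not computed. In the double deletion over the rrp6 deletion at 0 min the correlations of letters A, B and C were 0.41, 0.07 and 0.30. The block gave 2 members there (1 without it). In the double deletion over the mpk1 deletion at 45 min the correlations were 0.38, −0.30 and −0.25, and the block gave 5 members (4 without it). With the block, 1 member was called for the heat response of the double minus the rrp6 deletion at 10 min (0 without it). For the difference in MPK1 loss at 10 min the block gave 2 (0 without it).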
